A study of Mus musculus with 6 samples.

Results

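Amino acid transporter genes were followed in bEnd.3 cells, a mouse brain endothelial cell line, given a miR-423-5p mimic or a control mimic. Such mimics are synthetic small RNAs that act in place of a mature microRNA. The 9 genes were taken by symbol from the 30768 genes of the deposited table: Slc7a5, Slc3a2, Slc7a1, Slc7a6, Slc1a4, Slc1a5, Slc38a1, Slc38a2 and Slc43a2. Membership was set by symbol, but the members and the gene lists below were chosen with earlier results of these data known. Counts of called genes among them are therefore not those of a blind choice. All 9 passed the filter on low counts. Each group has 3 libraries of polyadenylated RNA, and the only labelled difference between the groups is the mimic. The sources used here give neither the dose of the mimic nor the time after it, and do not say that replicates were separate cultures, so that p-values reflect only how far these libraries spread, possibly for technical reasons. The line is a single transformed line, and mature microRNAs are too short for such libraries, so the level of miR-423-5p was not analysed here.

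Amino acids cross the plasma membrane through carriers that differ in substrate and driving force. Slc7a5 encodes LAT1, an exchanger of leucine, phenylalanine, tryptophan and other large neutral amino acids (system L) that is abundant in the endothelium of the blood-brain barrier. It works as a heterodimer with the heavy chain 4F2hc (CD98), the product of Slc3a2, which also carries the y+L exchanger of Slc7a6. Slc7a1 encodes the arginine and lysine carrier CAT1 (system y+), Slc43a2 the heavy-chain-independent system L carrier LAT4, Slc1a4 and Slc1a5 the exchangers ASCT1 and ASCT2 of serine, alanine and glutamine (system ASC), and Slc38a1 and Slc38a2 the sodium-coupled carriers SNAT1 and SNAT2 (system A). Several of these genes are known targets of ATF4, the transcription factor that cells induce when amino acids run short.

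A microRNA pairs through its seed, bases 2 to 8, with sites in the 3' untranslated region (3' UTR) of messenger RNAs. The mature miR-423-5p of RefSeq (GRCm38.p6, 11:77078122-77078144, minus strand) is printed first, with its seed in capitals. The sites that follow are those of the members with the longest matches and, for comparison, those of the pair of genes that fell most. For each gene the search covered its longest 3' UTR in GENCODE M21 (GRCm38), and capitals mark the bases that match.

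mmu-miR-423-5p: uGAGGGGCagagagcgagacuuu
Slc43a2 3' UTR base 597: gctagtctctgGCCCCTCttttccttgaa
Slc43a2 3' UTR base 1309: tggtaatggatGCCCCTCctcacgtatca
Slc43a2 3' UTR base 3452: tctcaccagaaGCCCCTCctttgtggtct
Slc38a2 3' UTR base 6: cagctCCCCTCAcgctggatggt
Slc1a4 3' UTR base 668: cctgccaacttCCCCTCcatttccattt
Slc7a5 3' UTR base 1022: ggcaccaagcaCCCCTCtgctctctgcc

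Only Slc43a2, of the 9, held the full match to the seed, GCCCCTC, in the 3' UTR searched. It held 3 such sites, at 11:75573062-75573090, 11:75573774-75573802 and 11:75575917-75575945 on the plus strand, in a 3' UTR of 5099 bases, where the median of the 13878 tested genes with an annotated 3' UTR is 1129 bases. Of those genes, 13.2% held GCCCCTC. Slc38a2 held CCCCTCA, a match to bases 2 to 7 followed by A, at 15:96690104-96690126 on the minus strand. Slc7a5 (8:121882002-121882029, minus strand) and Slc1a4 (11:20303582-20303609, minus strand) each held 1 match to bases 2 to 7 alone, CCCCTC, as did Slc1a5 and, beside its longer matches, Slc43a2. Slc38a1 had 3 and Slc7a1 had 4 of those shorter matches, in 3' UTRs of 5293 and 5030 bases, and Slc3a2 and Slc7a6 had none. Of the 13878 genes, 25.8% held such a shorter match and 9.07% the form found in Slc38a2. No member held the 8-base form GCCCCTCA, which 3.69% of the genes had, and Slc1a5 alone had GCCCCTC in its coding sequence, once, where 14.9% of the genes have it.

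Of the 9 transporter genes 5 fell in the miR-423-5p cells, 1 rose and 3 did not pass the test. Slc1a4 fell most, 2.43-fold, followed by Slc7a5 (1.78-fold), Slc43a2 (1.596-fold), Slc3a2 (1.32-fold) and Slc7a1 (1.32-fold), while Slc38a1 rose 1.31-fold. The test was edgeR's quasi-likelihood test over all 18103 tested genes, adjusted by Benjamini-Hochberg with a cut-off of 0.05, where 7.21% of genes fell, 9.09% rose and 16.3% changed in either direction. The median log2 fold change was -0.40 over the 9 genes and -0.02 over all genes tested. Level values below are CPM, counts relative to library depth, scaled by the TMM method, which evens out differences in library makeup. All miR-423-5p libraries were below all controls for 5 members, against 19.6% of all genes, and above them for 2, against 18.8%.

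The libraries hold from 63217696 to 78456344 counts, of which the 9 genes take 0.167% to 0.205%. Control 3 stood apart from the other libraries in part through transcripts of other cell types. The macrophage marker Adgre1 was at 25.1 CPM there and at 0.0590 CPM or less in the other 5, and the neuronal tubulin gene Tubb3 at 24.5 CPM against at most 0.554 CPM. Other genes were lower in control 3 than in controls 1 and 2. Cebpb, of the ATF4 list below, was at 16.9 CPM against 171 and 177 CPM (log2 fold change 0.18 ± 0.69, SE, not called). The fibroblast marker Col1a1 was at 24.3 CPM against 50.5 and 59.0 CPM. Without control 3, 3 of the 9 transporters fell (Slc7a5, Slc3a2 and Slc1a4) and none rose with edgeR, where 7 of them had an unadjusted p under 0.05, and 4.67% of all genes fell and 6.18% rose. When control 1 or control 2 was left out, 2 of them fell (Slc7a5 and Slc1a4) and none rose, with 8 and 7 at an unadjusted p under 0.05. With all libraries an edgeR p of 0.0497 ranked 5910 of the 18103 genes tested, so an unadjusted p under 0.05 was common. Its share of all genes was not taken without control 1, control 2 or control 3. Calls were fewer over the whole table in these fits: 2.24% of all genes fell and 3.88% rose without control 1, and 1.98% and 3.04% without control 2. Leaving out replicate 1 or 3 of the miR-423-5p group gave 3 decreases, where 3.16% and 2.56% of all genes fell and 4.82% and 3.91% rose. Leaving out its replicate 2 gave 5 decreases and 2 increases, where 9.68% of all genes fell and 12.6% rose. DESeq2 on all libraries called 2 increases, Slc38a1 and Slc1a5, where 10.1% of all genes rose. With scaling to total counts in place of TMM, the median over all genes moved from -0.02 to -0.18 (log2). It gave 6 decreases and no increase among the 9, with Slc7a6 added and Slc38a1 lost, against 14.2% and 4.83% of all genes, and each of the 9 kept its direction.

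**Figure D1:**
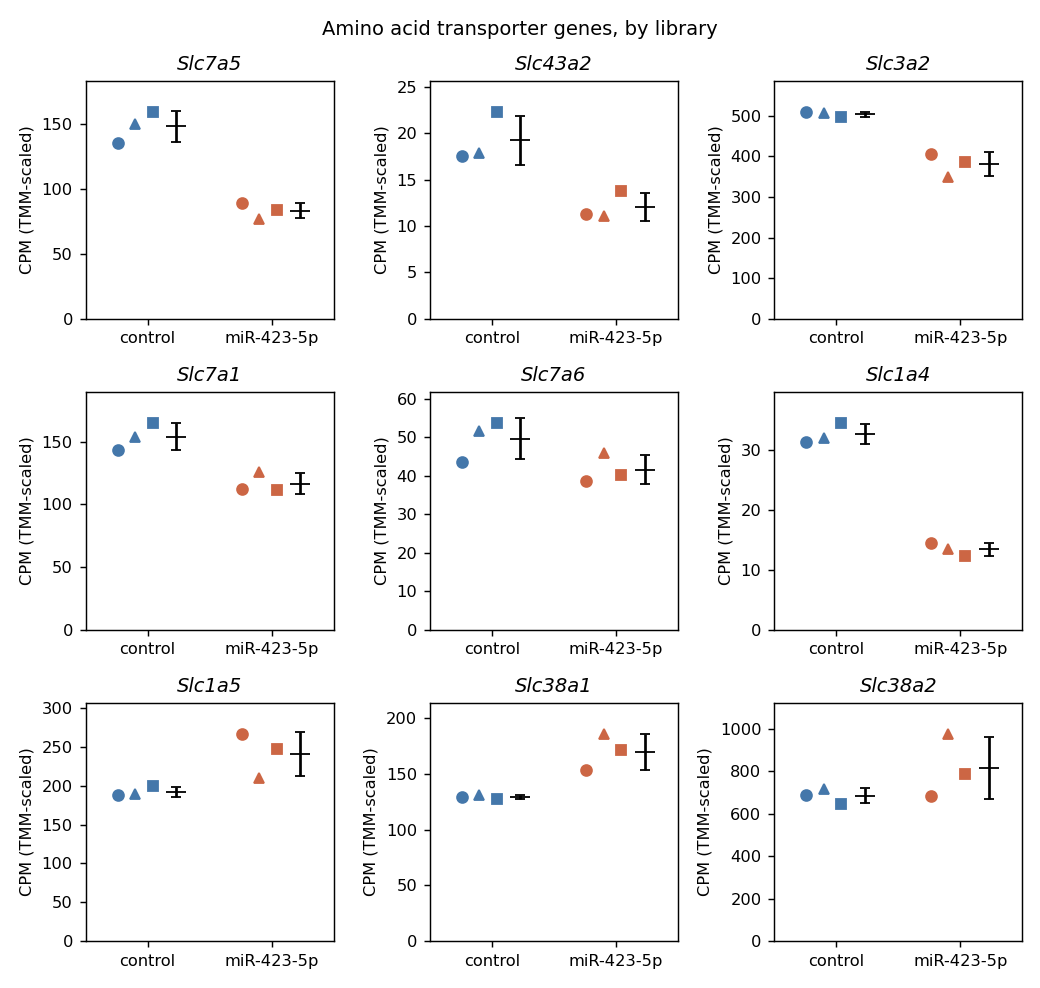
Level of each transporter gene in every library, in TMM-scaled CPM on axes that start at 0. Circles, triangles and squares are replicates 1, 2 and 3 of the control (blue) and miR-423-5p (orange) groups, and black marks give the mean and SD of 3 libraries. The groups do not overlap for Slc7a5, Slc43a2, Slc3a2, Slc7a1, Slc1a4, Slc1a5 and Slc38a1, and they overlap for Slc7a6 and Slc38a2.

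Markers of endothelial cells were higher in the same miR-423-5p libraries: of 10, 9 rose and none fell, and their summed level ran from 2073 to 2256 CPM in the controls and from 3555 to 3910 CPM in the miR-423-5p libraries. No marker of that list was at 0 in a whole group, but the tight junction gene Cldn5 stood at 0.160 ± 0.0484 CPM in the controls and 0.470 ± 0.291 CPM in the miR-423-5p cells (SD, n = 3). Of 10 pericyte and fibroblast markers, 9 were tested, 5 fell and none rose, and their sum went from between 76.5 and 183 CPM to between 18.1 and 25.3 CPM. The 8 astrocyte markers summed to 72.0 to 90.1 and 61.2 to 76.5 CPM, with Sox9 at 0 in the miR-423-5p libraries. The 8 macrophage markers summed to 578 to 830 and 707 to 987 CPM, mostly through Cd68, with Adgre1 and Tyrobp at 0 in the miR-423-5p libraries. In controls 1 and 2 these were at 0 to 4 counts, so that only control 3, with 1834 and 305 counts, stood apart. The 8 neuron markers summed to 45.0, 41.8 and 122 CPM in controls 1, 2 and 3 and to 122 to 148 CPM in the miR-423-5p libraries, there mostly through Nefl. Rbfox3, Map2 and Stmn2 were at 0 in the miR-423-5p libraries and at 0 to 8 counts in controls 1 and 2, against 65, 1347 and 925 counts in control 3. The part of these differences in the transporter results was not tested. In bulk RNA, fewer cells of a type and less RNA per cell cannot be told apart.

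Slc7a5 (ENSMUSG00000040010, 8:121881150-121907694, minus strand), the gene of the system L light chain LAT1, stood at 136, 150 and 159 CPM in controls 1, 2 and 3 and at 89.1, 77.2 and 83.8 CPM in miR-423-5p libraries 1, 2 and 3. The lowest control was above the highest miR-423-5p library. The fitted change on the log2 scale was -0.83 ± 0.091 (SE; edgeR adjusted p = 0.00188). It was called in all 15 alternative fits, and leaving out single libraries gave log2 fold changes from -0.89 to -0.76 and edgeR adjusted p from 0.00468 to 0.0182. GENCODE places an opposite-strand gene, Gm20388, over the whole locus; it was not used here.

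Slc3a2 (ENSMUSG00000010095, 19:8706882-8723369, minus strand), the gene of the shared heavy chain 4F2hc, stood at 509, 506 and 496 CPM in the controls and at 406, 349 and 387 CPM in the miR-423-5p libraries. The controls lay close together and all were above the miR-423-5p libraries. The decrease was smaller than that of its light chain, at -0.40 ± 0.081 on the log2 scale (SE; edgeR adjusted p = 0.0166). It was no longer called without control 1, control 2 or miR-423-5p 3, where the log2 fold change of Slc3a2 was still between -0.40 and -0.39 and the edgeR adjusted p reached 0.0805; over all 15 alternatives the adjusted p ran from 0.000292 to 0.0805.

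The other heavy-chain partner among the 9, Slc7a6 (ENSMUSG00000031904, 8:106168857-106198706, plus strand), encodes y+LAT2, which exchanges cationic for neutral amino acids. It stood at 43.6, 51.5 and 53.7 CPM in the controls and at 38.7, 45.9 and 40.2 CPM in the miR-423-5p libraries, and the groups overlapped through control 1 and miR-423-5p 2. The log2 fold change was -0.25 (95% interval -0.51 to 0.01; edgeR adjusted p = 0.161), so that the interval leaves room for a decrease like that of Slc3a2. Scaled to total counts it was called, at a log2 fold change of -0.41 (edgeR adjusted p = 0.0499, in a range of 0.0499 to 0.392 over its alternatives).

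Slc43a2 (ENSMUSG00000038178, 11:75531694-75577575, plus strand), the gene of the uniporter LAT4 and the one with 3 seed matches, was the least abundant member. It stood at 17.6, 17.9 and 22.3 CPM in the controls and at 11.3, 11.05 and 13.8 CPM in the miR-423-5p libraries, with control 3 the highest of all 6. The groups did not overlap, and the log2 fold change was -0.67 ± 0.15 (SE; edgeR adjusted p = 0.0209). The call was lost without control 1, control 2, control 3 or miR-423-5p 1, with log2 fold changes for Slc43a2 from -0.76 to -0.56 over the 6 single libraries left out. Without control 3 it was -0.56 (edgeR adjusted p = 0.0551, in a range of 0.000698 to 0.0743 over the alternatives). An antisense gene, Gm45606, overlaps 1378 bases of the locus and had 39 to 76 counts a library.

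Slc7a1 (ENSMUSG00000041313, 5:148327410-148399904, minus strand), the gene of the cationic amino acid carrier CAT1, stood at 143, 154 and 165 CPM in the controls and at 112, 126 and 111 CPM in the miR-423-5p libraries. All controls were above all miR-423-5p libraries, and the log2 difference was -0.40 ± 0.087 (SE; edgeR adjusted p = 0.0208). The decrease kept its direction without any single library, between -0.45 and -0.35. The call was lost when any library but miR-423-5p 2 was left out, with edgeR adjusted p up to 0.104.

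**Figure D2:**
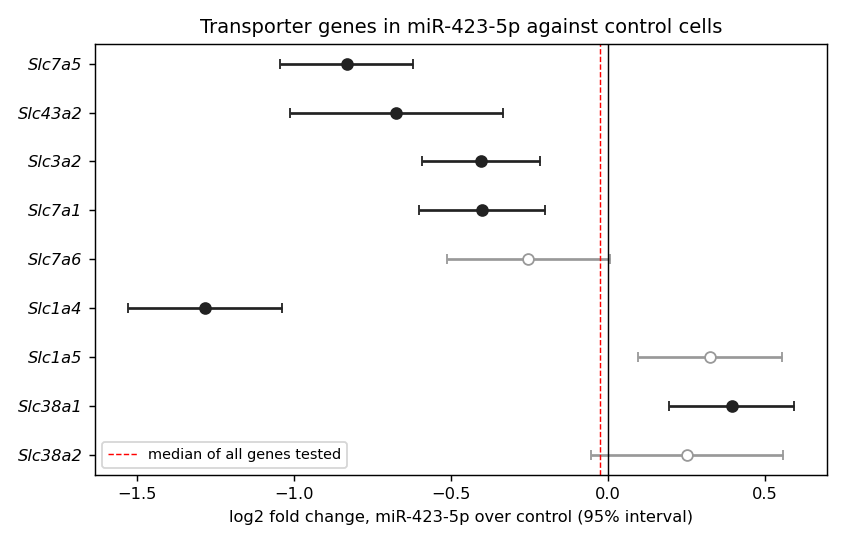
Log2 fold change of each transporter gene, miR-423-5p over control, with its 95% interval from the edgeR fit. Filled points passed an adjusted p of 0.05, open points did not, and the dashed line is the median of all genes tested, -0.02. Slc1a4 lies farthest from 0 at -1.28, and the intervals of Slc7a6 and Slc38a2 cross 0.

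Slc1a4 (ENSMUSG00000020142, 11:20302180-20332713, minus strand), the gene of the serine and alanine exchanger ASCT1, stood at 31.3, 32.0 and 34.4 CPM in the controls and at 14.4, 13.4 and 12.3 CPM in the miR-423-5p libraries. Every control was far above every miR-423-5p library. The log2 fold change was -1.28 ± 0.11 (SE; edgeR adjusted p = 0.000852), and by p it ranked 59 of the 18103 genes tested. The decrease of Slc1a4 was called in all 15 alternatives, and leaving out single libraries gave log2 fold changes from -1.34 to -1.20.

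Its family neighbour Slc1a5 (ENSMUSG00000001918, 7:16781340-16798274, plus strand) encodes ASCT2, the exchanger through which many dividing cells take up glutamine. It stood at 188, 189 and 200.2 CPM in the controls and at 267, 210.3 and 248 CPM in the miR-423-5p libraries, all above the controls. The log2 fold change was 0.33 (95% interval 0.10 to 0.56), and it did not pass the test (edgeR adjusted p = 0.0621). It passed without miR-423-5p 2, its lowest library of that group, at 0.44 (edgeR adjusted p = 0.011) and with DESeq2 (adjusted p = 0.0222), in a range of 0.011 to 0.346 over the alternatives.

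Both system A genes were higher on average, and 1 passed the test. Slc38a1 (ENSMUSG00000023169, 15:96571418-96642913, minus strand), the gene of SNAT1, stood at 129, 131 and 128 CPM in the controls and at 153, 186 and 171 CPM in the miR-423-5p libraries. No library overlapped, and the log2 fold change was 0.39 ± 0.086 (SE; edgeR adjusted p = 0.0214). The call was lost without control 1, control 2, control 3 or miR-423-5p 3 and in the fits on FPKM or total counts, with adjusted p for Slc38a1 up to 0.230 and a log2 fold change of 0.24 on total counts.

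Slc38a2 (ENSMUSG00000022462, 15:96687392-96699730, minus strand), the gene of SNAT2, the system A carrier that amino acid shortage induces, stood at 687, 718 and 648 CPM in the controls. The miR-423-5p libraries were at 685, 975 and 786 CPM, so that the groups overlapped and miR-423-5p 2 stood above all others. The log2 fold change was 0.25 (95% interval -0.05 to 0.56; edgeR adjusted p = 0.226), and without miR-423-5p 2 it was 0.12 (edgeR adjusted p = 0.368). The gene was called in none of the 15 alternatives, where its adjusted p ran from 0.115 to 0.808.

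**Figure D3:**
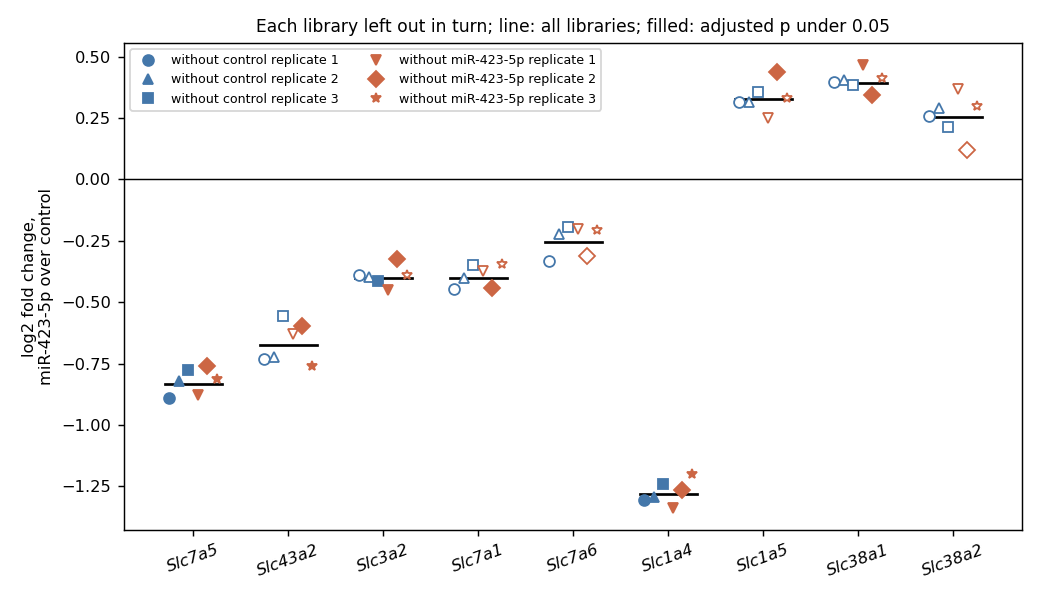
Log2 fold change of each transporter gene with all libraries (black line) and with each library left out in turn (symbols; blue for a control left out, orange for a miR-423-5p library). Filled symbols passed an adjusted p of 0.05. Slc7a5 and Slc1a4 passed with any library left out, Slc7a6 and Slc38a2 with none, and each gene stayed on its side of 0.

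Levels of different genes were compared per length, as the deposited FPKM values, which are fragments scaled by gene length and library depth and are not TMM-scaled. In the controls Slc3a2 was highest at 141 ± 2.27 FPKM, then Slc38a2 (76.6 ± 2.68), Slc1a5 (45.7 ± 2.93), Slc7a5 (39.7 ± 4.32), Slc7a1 (13.2 ± 1.31), Slc7a6 (10.8 ± 1.42), Slc1a4 (8.22 ± 0.657), Slc38a1 (7.42 ± 0.179) and Slc43a2 (1.899 ± 0.322; all SD, n = 3). Among neighbours in that order only Slc1a5 and Slc7a5 overlapped between libraries. In the miR-423-5p cells Slc3a2 was at 94.0 ± 5.54 FPKM and Slc38a2 at 80.8 ± 17.2 FPKM, and these overlapped. Slc1a5 (50.4 ± 5.02) and Slc7a5 (19.6 ± 1.17) no longer did. Slc7a1 (8.83 ± 0.975), Slc38a1 (8.61 ± 1.04) and Slc7a6 (7.95 ± 1.01) overlapped in turn, and Slc1a4 (2.97 ± 0.309) and Slc43a2 (1.04 ± 0.0909) were lowest.

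Within a library, the light chain gene changed more than its heavy chain gene. The ratio of Slc7a5 to Slc3a2 FPKM was 0.254, 0.283 and 0.306 in the controls and 0.209, 0.210 and 0.206 in the miR-423-5p libraries. The lowest control was above every miR-423-5p library, and the log2 ratio fell by 0.43 (two-sided exact permutation p = 0.1, which is the lowest possible with 3 against 3; 0.16 adjusted over 8 ratios and sums). The family pair parted more widely: Slc1a4 over Slc1a5 was 0.177, 0.179 and 0.183 in the controls and 0.0574, 0.0678 and 0.0527 in the miR-423-5p libraries, a log2 difference of -1.61 (exact permutation p = 0.1; 0.16 adjusted). Slc7a1 over Slc7a6 was 1.23 ± 0.0634 and 1.11 ± 0.0340 (SD, n = 3; exact permutation p = 0.1; 0.16 adjusted), and Slc38a1 over Slc38a2 was 0.0970 ± 0.00375 and 0.108 ± 0.00915 (exact permutation p = 0.2; 0.267 adjusted). These last 3 ratios were chosen after the values were seen.

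Summed by system, the 2 system L genes went from 37.0, 41.5 and 46.3 FPKM in the controls to 21.9, 19.9 and 20.1 FPKM, a log2 difference of -1.01. The sum of Slc7a1 and Slc7a6 went from 24.0 ± 2.70 to 16.8 ± 1.98 FPKM (SD, n = 3), a log2 difference of -0.52. Neither sum overlapped between groups, and for both the exact permutation p was 0.1 (0.16 adjusted). The ASC pair summed to 53.9 ± 3.59 and 53.4 ± 5.11 FPKM (exact permutation p = 0.9) and the system A pair to 84.0 ± 2.72 and 89.4 ± 18.2 FPKM (exact permutation p = 0.8). Most of the system L sum was Slc7a5 (39.7 FPKM in the controls and 19.6 FPKM in the miR-423-5p cells). Slc1a5 likewise made up most of the ASC sum (45.7 and 50.4 FPKM) and Slc38a2 most of the system A sum (76.6 and 80.8 FPKM). With FPKM rescaled by the TMM factors, the log2 difference of the ASC sum turned from -0.02 to 0.14, and that of system A went from 0.07 to 0.23. These factors were 1.05 to 1.07 in the controls and 0.935 to 0.966 in the miR-423-5p libraries. Rescaling therefore also moves the differences of system L and of Slc7a1 with Slc7a6 toward 0 from the -1.01 and -0.52 above. Their rescaled values are not given here. On the deposited FPKM, leaving out miR-423-5p 2 took the system A difference to -0.09.

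**Figure D4:**
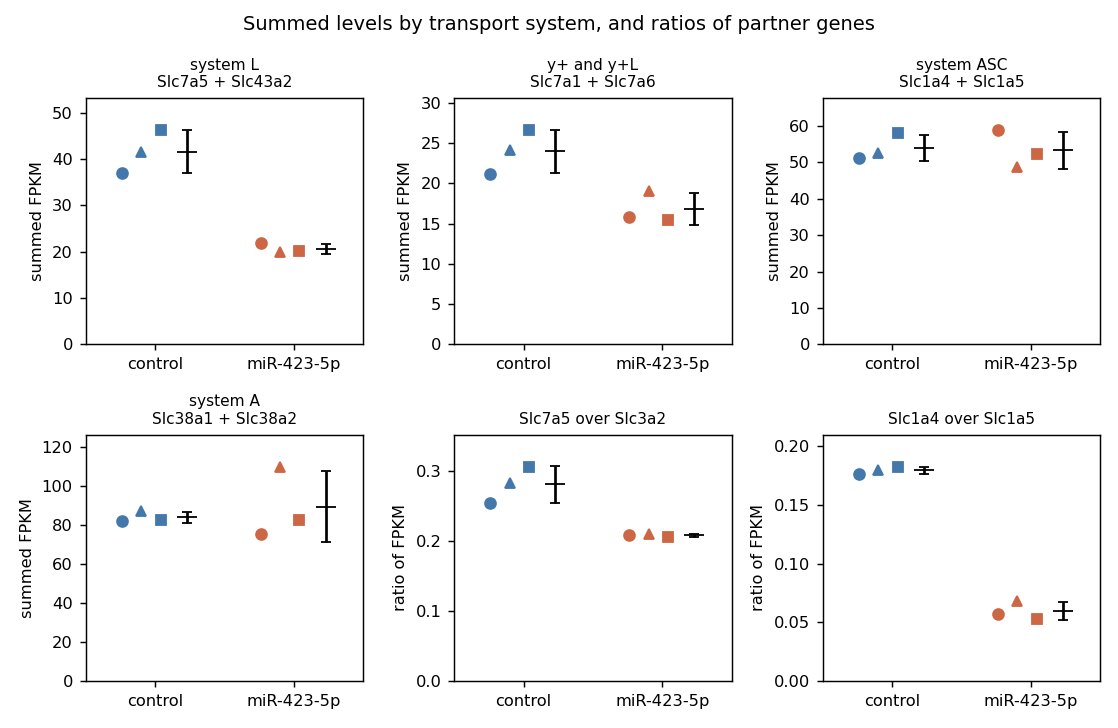
Summed FPKM of the gene pairs of each transport system and ratios of FPKM of partner genes, by library. Symbols and black marks are as in the plot of CPM by library. System L and the ratio of Slc1a4 to Slc1a5 separate the groups, while the sums of systems ASC and A overlap.

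Of 27 tested genes of the ATF4 amino acid response, 11 fell (40.7%) and none rose, where 7.21% and 9.09% of all genes did. The median log2 fold change of the list was -0.37, with 23 genes below 0 and 4 above. The 2 largest decreases among the 11, of Cth and Stc2, are of genes at very low levels. At an unadjusted p under 0.05 the list had 18 genes in either direction, where an edgeR p of 0.0497 ranked 5910 of all 18103 genes tested. Among the 18 was Jdp2, which was higher in all miR-423-5p libraries than in all controls (log2 fold change 0.68, edgeR adjusted p = 0.0628). In the list 1 gene rose with DESeq2 or without control 3. The gene of ATF4 itself stood at 492, 475 and 429 CPM in the controls and at 342, 263 and 302 CPM in the miR-423-5p libraries (log2 fold change -0.62 ± 0.11, SE; edgeR adjusted p = 0.011). Chac1, which degrades glutathione, went from 73.2, 73.0 and 77.5 to 41.1, 33.3 and 39.9 CPM, 1.96-fold lower. The leucine sensor gene Sesn2 was 2.08-fold, the stress gene Ddit4 1.81-fold and the transcription factor gene Atf3 1.52-fold lower, each called without any single library. Atf4 was not called without control 1, control 2 or miR-423-5p 3 (edgeR adjusted p up to 0.0611). With control 1, 2 or 3 left out, 4, 5 or 8 genes fell, and with miR-423-5p 1 or 3 left out, 8 or 6. On total counts 17 fell. The share of all genes that fell was also lower in each of those 5 fits with a library left out, at 1.98% to 4.67% against 7.21%, and was 14.2% on total counts. Phgdh, Psph, Ddit3 and Trib3 did not pass the test, with log2 fold changes of -0.01, -0.14, -0.24 and -0.17.

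ATF4 with its partners binds elements built on TGATGNAA. The 8-base form TTGCATCA, which is TGATGCAA on the other strand and so is also counted under TGATGNAA, was searched on both strands of the RefSeq promoters (GRCm38.p6; from 250 bases before to 50 after a gene's start). Of the members, 6 had a promoter in the table: Slc3a2, Slc7a1, Slc7a6, Slc1a4, Slc38a2 and Slc43a2. Of these, Slc1a4, which fell most, held the element; it starts 4 bases before the gene's start. It occurs in 0.895% of all 32851 promoters, TGATGNAA in 3.97% and CACGTG, the core bound by MYC and its relatives, in 7.15%. Slc1a4 was the only member with TGATGNAA and none held CACGTG, which says only that these letters are not in these windows. In the ATF4 list 6 of 25 genes held TTGCATCA, where 1.03% of all 27025 genes with a promoter did. The list was made of ATF4 and its known targets, so a high share there may follow from that choice. Of the 6, Atf3, Chac1 and Pycr1 fell. Vldlr, Nupr1 and Jdp2 were not called, with log2 fold changes of -1.37, -0.40 and 0.68, so that Jdp2 went the other way. Other genes of the lists with TTGCATCA were not called either: the transporter genes Slc7a7 and Slc7a11, with log2 fold changes of -0.03 and -0.50, and the aminotransferase gene Got1, with 0.22. The element, in capitals, is shown with the bases before it for Slc1a4 (11:20332710-20332769, minus strand), Chac1 (2:119351027-119351056, plus strand) and Atf3 (1:191183436-191183465, minus strand). These genes were picked because they fell, and genes with the element that were not called are not shown. Whether the element has a part in any of these changes was not tested.

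Slc1a4 promoter: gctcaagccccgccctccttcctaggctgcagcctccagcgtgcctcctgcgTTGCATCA
Chac1 promoter: tctggggaaaccttccctgccgTTGCATCA
Atf3 promoter: ccgtgaccgccccttctcgcacTTGCATCA

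Of the other plasma membrane transporter genes, 38 were listed and 22 tested. Of the 22, 2 rose (9.09%) and 1 fell (4.55%), where 9.09% and 7.21% of all genes did. Their median log2 fold change was 0.05. The list includes Slc43a3, known as a carrier of nucleobases, and the synaptic vesicle transporter gene Slc6a17, which was not tested. The shares are therefore not those of plasma membrane amino acid transporters alone. Slc38a10, a relative of the system A genes, rose from 156 ± 12.3 to 232 ± 11.5 CPM and the aromatic amino acid carrier gene Slc16a10 from 12.9 ± 1.11 to 19.2 ± 1.38 CPM, while the glycine transporter gene Slc6a9 fell from 30.5 ± 3.93 to 19.3 ± 1.49 CPM (SD, n = 3). Slc16a10 was not called without control 1, control 2 or miR-423-5p 3 (edgeR adjusted p up to 0.0652), nor Slc6a9 without miR-423-5p 3 (0.0527). Slc43a3, a relative of Slc43a2 known as a carrier of nucleobases, went from 321 ± 15.6 to 383 ± 10.1 CPM and was not called (edgeR adjusted p = 0.0528). Other partners of the heavy chain did not pass the test: the cystine exchanger gene Slc7a11 stood at 14.8 ± 3.30 and 10.5 ± 1.79 CPM and the y+L gene Slc7a7 at 7.56 ± 0.495 and 7.38 ± 1.53 CPM (SD, n = 3).

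Of 17 tested lysosomal and mitochondrial carrier genes, 4 rose (23.5%) and 2 fell (11.8%), where 9.09% and 7.21% of all genes did. Slc25a44, the mitochondrial carrier of branched-chain amino acids, fell from 57.1 ± 1.18 to 26.0 ± 2.56 CPM and the mitochondrial glutamate carrier gene Slc25a22 from 59.9 ± 1.097 to 36.7 ± 3.81 CPM (SD, n = 3), both called without any single library. The mitochondrial serine carrier gene Sfxn3 rose 1.45-fold and Mfsd12, of lysosomal cysteine import, 1.29-fold. The others that rose were Slc25a12 and Slc25a13, mitochondrial exchangers of aspartate and glutamate, at 1.25-fold and 1.57-fold. None of the list rose in edgeR once control 1 or control 2 was removed, where 3.88% and 3.04% of all genes rose. In those 2 fits 7 and 8 of its genes had an unadjusted p under 0.05, with no share of all genes taken. Removing miR-423-5p 3 left 2 increases, where 3.91% of all genes rose.

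Of 31 tested genes that carry amino acid signals to the kinase complex mTORC1, 2 rose (6.45%) and 1 fell (3.23%). Over all genes tested 9.09% rose and 7.21% fell. The complex subunit gene Rptor rose 1.51-fold and Tsc2, whose product restrains the complex, 1.43-fold, both called without any single library, and Sesn2, also in the ATF4 list, fell. Lars, the leucyl-tRNA synthetase gene, was 1.19-fold lower and not called (edgeR adjusted p = 0.0513). Without miR-423-5p 2, 4 rose and 4 fell, where 12.6% and 9.68% of all genes did. On total counts 2 rose and 6 fell, against 4.83% and 14.2% of all genes.

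Of 23 tested enzymes that make or use the carried amino acids, 4 rose (17.4%) and 2 fell (8.70%), where 9.09% and 7.21% of all genes did. Nos3, which makes nitric oxide from the arginine that CAT1 imports, stood at 861 ± 78.7 and 1979 ± 70.1 CPM (SD, n = 3), opposite in direction to Slc7a1. The ornithine decarboxylase gene Odc1 rose 1.48-fold and Asl, of arginine synthesis, 1.38-fold, while the glutamine synthetase gene Glul fell 1.47-fold. The remaining calls were Bcat2, a branched-chain aminotransferase gene that was 1.35-fold higher, and the alanine aminotransferase gene Gpt2, with a log2 fold change of -0.43. Asl and Glul were not called without control 1, control 2, miR-423-5p 1 or miR-423-5p 3 (edgeR adjusted p up to 0.125 and 0.108). Removing any of these 4 libraries left no gene of the list that fell in edgeR, where 1.98% to 3.16% of all genes fell. In those fits 7 to 9 of its genes had an unadjusted p under 0.05, with no share of all genes taken.

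Of 15 genes that act on the carriers, 3 rose (20%) and 2 fell (13.3%), where 9.09% and 7.21% of all genes did. Myc, the transcription factor known to bind at Slc7a5 and Slc1a5, went from 149, 155 and 164 CPM in the controls to 104, 107 and 106 CPM, 1.48-fold lower (edgeR adjusted p = 0.00274). Its relative Mycn, at lower levels, rose 1.89-fold from 3.63 ± 0.627 to 6.87 ± 0.838 CPM (SD, n = 3). The transcription factor gene Klf4 rose 1.76-fold and Bsg, whose product escorts monocarboxylate carriers, 1.44-fold. Max, the partner of MYC, was the other gene that fell (log2 fold change -0.25). Myc and Klf4 were called without any single library. Mycn was not without control 1, control 2 or miR-423-5p 1 (edgeR adjusted p up to 0.0731), nor Bsg without control 2, control 3, miR-423-5p 1 or miR-423-5p 3 (up to 0.108). Removing control 2 or miR-423-5p 1 left 1 increase in this list, where 3.04% and 4.82% of all genes rose. Removing miR-423-5p 2 gave 5, where 12.6% of all genes rose, and 1 gene fell whichever library was removed.

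**Figure D5:**
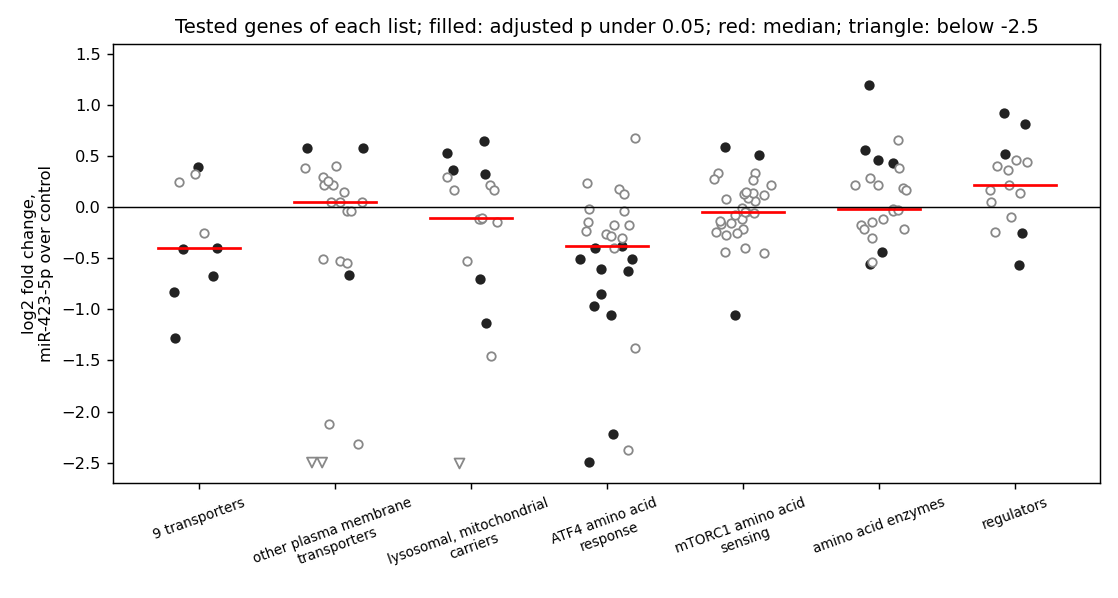
Log2 fold change of the tested genes of each list, miR-423-5p over control. Filled points passed an adjusted p of 0.05, red lines are medians, and triangles are genes below -2.5. The medians of the 9 transporters and the ATF4 list are -0.40 and -0.37, and those of the other lists lie between -0.10 and 0.22.

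The genes whose profile over the 6 libraries lay closest to that of Slc7a5 were Cilk1, Aen, Med22, Nuak2 and Ifit3b. The measure was the root mean square difference of log2 CPM, each gene centred on its control mean. It was taken over 9080 genes with a mean of 10 CPM or more, after genes with clone-type or pseudogene symbols were left out. For these 5 it was 0.0553 to 0.0843. All libraries entered it, so the shared difference between the groups is part of the likeness. Cilk1, a protein kinase gene, stood at 22.9, 24.6 and 25.4 CPM in the controls and 14.05, 13.5 and 14.3 CPM in the miR-423-5p libraries, and Aen, a nuclease gene induced by p53, at 132, 132 and 158 and at 83.5, 72.8 and 82.7 CPM. Among the transporters Slc43a2 was nearest to Slc7a5 (0.170, rank 80), then Slc3a2 (0.311, rank 536), Slc7a1 (0.326, rank 609) and Slc1a4 (0.330, rank 640).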

How the data were processed

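RNA of 6 bEnd.3 libraries was sequenced, 3 per group. The authors deposited, per gene and library, a read count and an FPKM value, per the file headers. Cutadapt 1.9, HISAT2 2.2.1, StringTie 2.1.6, DESeq2, edgeR and GRCm38 appear, without their roles, per the submitters' processing notes; the libraries marked strand, per the labels' protocols, but the sources used here do not give counting and strand settings, which leaves overlapping genes uncertain.

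The quasi-likelihood test of edgeR 4.0.16 in R 4.3.3 was run on the counts of all genes after filterByExpr and TMM scaling, with the group as the only term, and p-values were adjusted over 18103 genes. The SE is the log2 fold change over the square root of F. FPKM sums and ratios were compared by exact permutation. Chi-square tests of the counts found every pair of libraries to differ by more than sampling noise. At these depths 3 counts, the limit that a count of 0 allows, are 0.0382 to 0.0475 CPM, for counting error only.

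The members and the gene lists were chosen with earlier results of these data known. Named genes were the 9 members; up to 4 per list by smallest p; called genes of the other plasma membrane transporters; and the 5 genes nearest to Slc7a5. Atf4, Cth, Stc2, Pycr1, Slc25a12, Slc25a13, Bcat2, Gpt2, Max, Slc7a11, Slc7a7, the marker genes and the uncalled genes of the ATF4 list were named after their values were seen. Of the listed symbols, Slc7a9, Slc36a2, Slc38a8, Slc38a11, Slc66a1 and Samtor matched no row. Alternatives were DESeq2 1.42.0, DESeq2 size factors, total-count scaling, no filter, robust dispersion, limma 3.58.1 on log2(FPKM + 0.1, 1 or 5), a replicate block and leaving out each library. The edgeR fit, with and without the replicate block, and the DESeq2 fit were tested on simulated data. The limma fits, the permutation tests and the likeness measure were not. Scripts ran on Python 3.11.15.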

Additional observations from a re-analysis of the deposited data

How the results depend on the processing

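All 9 transporters kept their direction in the 15 alternatives, and Slc7a5 and Slc1a4 were called in each. Of the 9, 2 to 5 fell and 0 to 2 rose when single libraries were left out; the number that rose was 0 with total-count scaling and with limma at each pseudocount, and 2 with DESeq2. Over all genes, 1646 rose and 1305 fell in edgeR, 874 and 2569 with total-count scaling, 2167 and 1814 with DESeq2, and 1093 and 759 with no filter. Same-numbered libraries of the 2 groups did not deviate together (r = 0.0749, -0.0264 and 0.0498), so the numbers were not taken as pairs; with a replicate block 1369 genes rose and 1042 fell, and the members had 5 decreases and 1 increase.

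For the other plasma membrane transporters, 2 fell with total-count scaling, 3 with DESeq2 and 2 with limma at a pseudocount of 0.1; 1 rose with limma at each pseudocount and 1 to 3 with libraries left out. For intracellular carriers, 2 rose with total-count scaling, 0 with limma and 0 to 4 with libraries left out. For the ATF4 list, 17 fell with total-count scaling and 17, 18 and 17 with limma at pseudocounts of 1, 0.1 and 5, and 4 to 10 with libraries left out; 1 rose with DESeq2, 1 with the replicate block, and 0 to 1 with libraries left out. For mTORC1 sensing, 6 fell with total-count scaling, 2 with DESeq2, 5 with limma and 1 to 4 with libraries left out; 1, 1 and 0 rose with limma at 1, 0.1 and 5, and 2 to 4 with libraries left out. For the enzymes, 4 fell with total-count scaling, 5 with limma, 1 with the replicate block and 0 to 2 with libraries left out; 2 rose with total-count scaling, 2 with limma and 2 to 5 with libraries left out. For the regulators, 1 fell with DESeq2 size factors, no filter, robust dispersion, the replicate block or any library left out; 5 rose with DESeq2 and 1 to 5 with libraries left out. The ASC sum turned to 0.14 with FPKM rescaled by TMM factors. Calls over the whole table shifted too. With limma at 1, 0.1 and 5, 2389, 2459 and 2363 of all 18103 genes fell, against 1305 in the main fit. In the same limma fits 770, 767 and 753 rose, against 1646. With libraries left out, 372 to 1836 of all genes fell and 570 to 2386 rose. The cause of the shifts in the lists was not tested. With 3 libraries per group, exact permutation cannot go below 0.1, and the groups' spread may be technical.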

Other observations

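Some amino acid transporter genes had counts almost solely in control 3 among the 6 libraries, and are given here as values. Slc7a8, which encodes the system L light chain LAT2, had 563 counts in control 3 and 0 in the other 5 libraries. Slc6a17, a transporter gene of synaptic vesicles, had 321 counts in control 3, 16 in control 2 and 0 in the rest. The glutamate transporter genes Slc1a2 and Slc1a3 had 525 and 295 counts there, against at most 45 and at most 15 elsewhere. Slc15a3, a lysosomal carrier of peptides and histidine, had 519 counts in control 3 and 10 to 26 in the others. For the 9 members, control 3 was the highest control for Slc7a5, Slc7a1, Slc7a6, Slc1a4, Slc1a5 and Slc43a2 and the lowest for Slc3a2, Slc38a1 and Slc38a2.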
